A study of Mus musculus with 9 samples.

Results

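The B4 and ID families are short interspersed elements (SINEs), and they comprised 82147 of the 623916 single repeat copies that the table of retrotransposons held for mouse embryonic stem cells (ESCs). Members were all rows whose class was SINE and whose family was B4 or ID, a rule that names no measured value. The B4 family had 76370 copies under 4 repeat names, of which 25100 were ID_B1, 24935 RSINE1, 16964 B4A and 9371 B4. The ID family had 5777 copies, of which 2431 were ID4_, 2302 ID4, 529 ID2 and 515 ID. RNA had been sequenced in 9 libraries of C57BL/6 ESCs, with 3 each of G4 Terc-/-, G1 Terc-/- and wild-type (WT) cells, all from early passages. The RNA subunit on which telomerase copies telomere repeats is the product of Terc, and the design asks whether retrotransposon RNA differs between ESCs with short and with longer telomeres. G4 cells came from blastocysts of third-generation Terc-/- mice, G1 cells from blastocysts of Terc+/- intercrosses, and all groups were grown with leukaemia inhibitory factor and freed of feeder cells before RNA was made. The labels name no separate cultures, so p-values measure the spread between these libraries, and generation and cell line cannot be told apart.

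SINEs are retrotransposons that encode no protein and are copied by the machinery of LINE-1 elements. ID elements descend from a tRNA gene by way of Bc1, a short RNA of rodent neurons that RNA polymerase III transcribes from an internal promoter of an A box and a B box. B4 elements are old rodent SINEs whose start resembles ID and whose later part resembles B1. Most SINE copies no longer drive transcription of their own and lie in introns or untranslated regions, where they are read as part of the messenger RNA around them.

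The sequences below are shown to compare members of each repeat name except ID with Bc1. The copies used lie in exons of noncoding transcripts and include those with the largest rises. They run 5′ to 3′ on the strand of the element. Capitals mark the best match to the A box AGCTCAGNG within the first 30 bases and to the B box GGTTCNNTC starting 30 to 60 bases after it, where each differed by at most 2 letters, and lines without capitals held no such pair. In the copies of M6pr and Gm15760 both boxes differed by 2 letters, the most allowed. Such pairs stood in 12.7% of the B4A copies read and in 4.07% of stretches beside them, so capitals need not mark a kept promoter. All were read from GENCODE transcripts on GRCm38. Bc1 lies at chr7:144914470-144914544 on the plus strand, the ID4_ copy of Gm49336 at chr14:60226199-60226286 on the plus strand, the ID4 copy of M6pr at chr6:122313617-122313711 on the plus strand and the ID2 copy of Inip at chr4:59774359-59774433 on the minus strand. The B4 copy of Gm13203 lies at chr4:148716273-148716537 on the plus strand, the ID_B1 copy of 1110002J07Rik at chr10:66912559-66912779 on the plus strand, the RSINE1 copy of 2900097C17Rik at chr2:156389295-156389444 on the minus strand and the B4A copy of Gm15760 at chr16:20546501-20546654 on the minus strand.
Bc1: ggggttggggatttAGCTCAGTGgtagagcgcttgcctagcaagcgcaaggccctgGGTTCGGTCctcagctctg
ID4_ of Gm49336: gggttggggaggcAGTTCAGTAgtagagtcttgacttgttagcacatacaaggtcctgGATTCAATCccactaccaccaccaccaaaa
ID4 of M6pr: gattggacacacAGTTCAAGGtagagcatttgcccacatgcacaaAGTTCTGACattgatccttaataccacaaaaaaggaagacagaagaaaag
ID2 of Inip: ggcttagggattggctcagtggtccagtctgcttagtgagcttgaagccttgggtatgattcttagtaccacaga
B4 of Gm13203: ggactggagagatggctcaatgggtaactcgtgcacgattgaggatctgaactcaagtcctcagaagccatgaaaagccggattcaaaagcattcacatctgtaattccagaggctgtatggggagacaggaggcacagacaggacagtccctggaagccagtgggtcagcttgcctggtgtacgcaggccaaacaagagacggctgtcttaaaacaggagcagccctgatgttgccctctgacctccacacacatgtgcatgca
ID_B1 of 1110002J07Rik: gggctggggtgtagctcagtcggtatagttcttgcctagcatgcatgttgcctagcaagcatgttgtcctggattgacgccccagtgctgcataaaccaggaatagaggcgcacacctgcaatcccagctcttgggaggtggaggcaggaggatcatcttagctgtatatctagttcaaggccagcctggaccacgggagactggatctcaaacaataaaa
RSINE1 of 2900097C17Rik: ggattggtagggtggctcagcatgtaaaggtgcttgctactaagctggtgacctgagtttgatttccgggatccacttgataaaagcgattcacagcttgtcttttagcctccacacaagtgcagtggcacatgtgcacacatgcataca
B4A of Gm15760: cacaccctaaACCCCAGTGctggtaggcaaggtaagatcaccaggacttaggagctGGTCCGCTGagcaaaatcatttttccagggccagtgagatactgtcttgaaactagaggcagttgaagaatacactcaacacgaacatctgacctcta

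The ID copies resembled the internal promoter of Bc1 more often than the B4 copies did. The transcripts gave the sequence of 668 of the 709 exonic ID copies, and 373 of them (55.8%) held both boxes at this spacing with at most 2 differing letters each, against 13 of 664 stretches of equal length beside them (1.96%). Of 5551 exonic B4-family copies, 1123 (20.2%) held such a pair, against 242 of 5437 neighbouring stretches (4.45%). The unaltered A box stood on the strand of the element in 101 ID copies (15.1%) and the unaltered B box in 81 (12.1%), and 13 copies held both. In the B4 family these letters stood in 101 copies (1.82%) and 134 copies (2.41%), and 1 copy held both. Identity to the first 75 bases of Bc1 had a median of 66.7% over the 668 ID copies, with a range of 40.0% to 81.3%, and was 73.3% in the printed copy of Gm49336. The median identity was 67.3% in the 32 ID copies higher in G4 than in WT ESCs, 66.7% in the 42 lower ones and 66.7% in the 75 not called. Bc1 itself overlapped none of the copies and was not analysed here.

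Members were short, and most had few counts. Copies of the B4 family had a median length of 148 bp and ID copies of 80 bp. The number in the fifth field of the repeat's name, which the header does not describe, had a median of 271 in the B4 family and 268 in the ID family, against 13 in the young LINE-1 name L1Md_A, 57 in B1_Mm and 304 in MIR. The B4 family held 842057 and the ID family 109062 of the 9065987 counts in all. Of the members, 57556 (70.1%) had fewer than 5 counts over the 9 libraries, and 1290 B4 and 166 ID copies passed the filter on low counts and were tested. Library totals over all repeats were 918879 to 1073243 counts in G4, 934609 to 1137257 in G1 and 943969 to 1064985 in WT ESCs. No copy of the table overlapped Terc (0 copies), and its deletion was therefore not checked here.

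Exonic copies carried most of the member counts. Only 8.33% of member copies lay in exons and 75.4% in introns, yet exonic copies carried 57.8% of the counts and intronic copies 35.5%. Copies outside genes but within 5 kb carried 5.26% and copies farther away 1.48%. Exons held 79.2% of the ID counts and 55.0% of the B4 counts. Of the 1456 tested members, 1081 were exonic, with 933 of these in 3′ UTRs, and 274 were intronic, 91 near a gene and 10 far from genes. In single names 1 copy could weigh heavily, since the copy of Igf2bp1 held 28.2% of all ID2 counts and the copy of Nanog 11.5% of ID4_ counts. Reads shared between copies left values that are not whole in 1406 member copies, and only 60.4% of ID4_ counts lay in copies with whole values.

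The B4 share of all repeat counts overlapped between the 3 groups, while the ID share was lower in every G4 and every G1 library than in any WT library. The B4 family took 9.59%, 9.23% and 9.36% of the counts in G4, 9.18%, 9.15% and 9.30% in G1 and 9.34%, 9.14% and 9.34% in WT libraries. The groups overlapped, and G4 minus WT was 0.116 percentage points (two-sided exact permutation test, p = 0.4). The ID family took 1.09%, 1.17% and 1.21% in G4, 1.20%, 1.20% and 1.16% in G1 and 1.24%, 1.29% and 1.25% in WT libraries. G4 and G1 libraries overlapped with each other, with 1 G4 library above all G1 libraries (G4 minus G1, exact permutation p = 0.7). The difference was -0.105 percentage points for G4 minus WT and -0.0714 for G1 minus WT (two-sided exact permutation tests, p = 0.1 each, the smallest that 3 against 3 can give).

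Set against B4, ID counts were also lower in G4 ESCs. There were 11.3, 12.7 and 12.9 ID counts per 100 B4 counts in G4, 13.1, 13.2 and 12.5 in G1 and 13.3, 14.1 and 13.4 in WT libraries. Again no G4 library reached a WT library (G4 minus WT -1.28, exact permutation p = 0.1), and the difference was -2.04 when the largest copy of each family was left out.

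**Figure D1:**
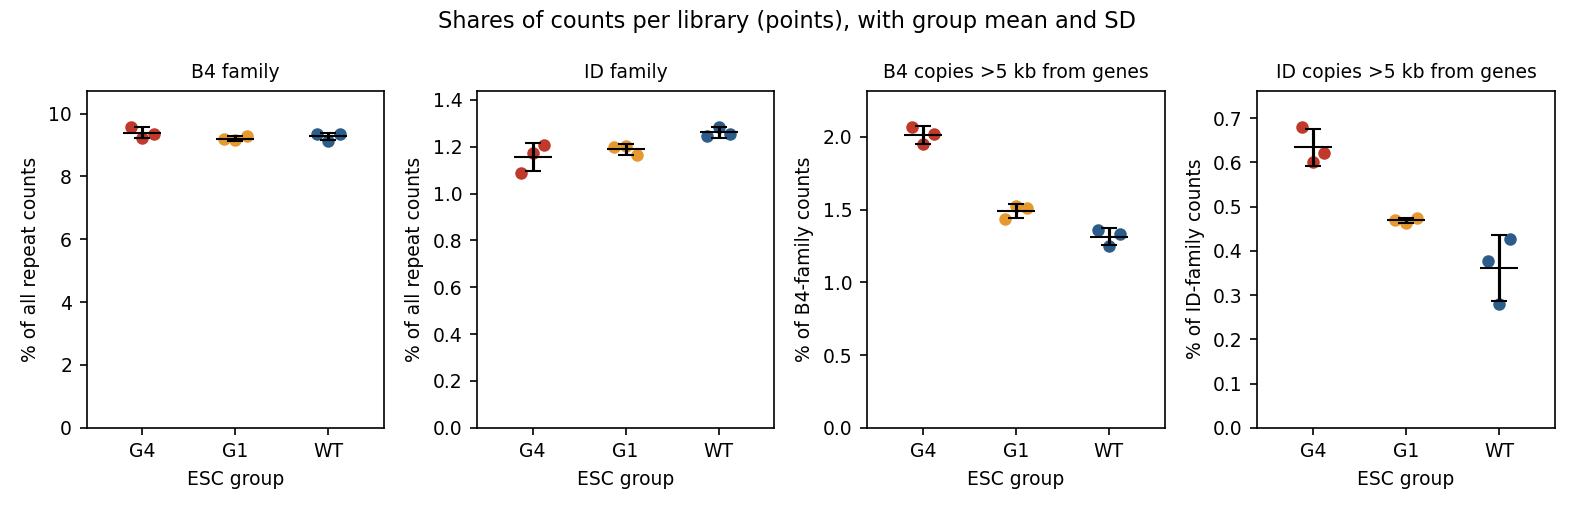
Share of counts per library (points) with the group mean and SD, n = 3 libraries each. From left to right the y axes give the B4 family and the ID family in percent of all repeat counts, and the copies over 5 kb from genes in percent of the B4 and of the ID counts. The ID share lies between 1.09% and 1.21% in G4 and between 1.24% and 1.29% in WT libraries, and the far share of B4 counts between 1.95% and 2.07% in G4 and between 1.25% and 1.36% in WT libraries.

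Tested as sums over whole families, the ID family was lower in G4 than in WT ESCs and the B4 family did not pass the test. ID summed to 10566, 11519 and 12236 CPM (counts scaled to a common library size with TMM factors) in G4, 12133, 12202 and 11853 in G1 and 12406, 12878 and 12422 in WT libraries. G4 library 1 was the lowest and G4 library 3 stood closest to the WT libraries, with no overlap between G4 and WT. The log2 fold change was -0.14 ± 0.04 (SE, edgeR quasi-likelihood test, adjusted p = 0.003), where 55.6% of the 36 families were called in either direction. The call was lost without WT library 2 (-0.09, adjusted p = 0.12) and without WT library 3 (-0.11, adjusted p = 0.054), and it was lost under the Wald test of DESeq2 (-0.09, adjusted p = 0.12). Without its largest copy, that of Nanog, the ID sum changed by -0.26, and it was then also called lower in G1 than in WT ESCs (-0.11, adjusted p = 0.021), against -0.06 ± 0.04 with it (adjusted p = 0.27). The B4 family changed by 0.01 ± 0.02 (adjusted p = 0.82). Under the Wald test of DESeq2 the B4 family was called higher in G4 (0.06, adjusted p = 0.021) and in G1 ESCs (0.07, adjusted p = 0.0082). Among the other SINE families tRNA changed most, by -0.40 ± 0.06, Deu gave 0.18 ± 0.09 (adjusted p = 0.080), B2 was higher by 0.16 ± 0.02, MIR changed by -0.10 ± 0.03 and Alu, which holds the B1 elements, by 0.05 ± 0.02 (adjusted p = 0.059).

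By repeat name, 7 of the 8 sums were called lower in G4 than in WT ESCs and 0 higher, where 23.4% of the 854 names were called lower and 23.2% higher. The ID4 sum fell most, at 4452, 5083 and 5014 CPM in G4, 6009, 5830 and 5527 in G1 and 6156, 6500 and 6306 in WT libraries (log2 fold change -0.38 ± 0.05, edgeR adjusted p = 7.9e-07). All G4 libraries lay below all G1 libraries, and these below all WT libraries. ID2 changed by -0.29 ± 0.06, B4 by -0.20 ± 0.03, B4A by -0.17 ± 0.03, ID4_ by -0.14 ± 0.05, RSINE1 by -0.12 ± 0.03 and ID_B1 by -0.08 ± 0.02. The name ID gave -0.05 ± 0.09 (adjusted p = 0.65).

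These directions are relative to the scaling. At the level of repeat names the ratio of the TMM factors of G4 to WT libraries was 0.14 on the log2 scale. Scaled to library totals, ID4 changed by -0.25 and ID2 by -0.15 and both were still called lower, B4, B4A and ID4_ were no longer called, RSINE1 stood at 0.02, and ID_B1 was called higher at 0.06. With the TMM factors of the single copies, ID4 (-0.30), ID2 (-0.21) and B4 (-0.11) were called lower. The ID4_ call was also lost without WT library 2 (-0.10) or G4 library 1 (-0.07). The ID_B1 call was lost under DESeq2 (-0.07) and with whole-valued copies (-0.06), and without the largest copy the calls of ID_B1 (-0.08) and ID2 (-0.17) were lost while ID4_ stood at -0.37.

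G1 ESCs differed little from WT ESCs at this level, with 0 of the 8 names called in either direction by edgeR and 1 name, ID4, at an unadjusted p under 0.05 (log2 fold change -0.13 ± 0.05, adjusted p = 0.083). Over all names 5.74% were called higher and 6.67% lower. DESeq2 called 0 names as well. G4 against G1 ESCs gave 5 names called lower (B4, B4A, RSINE1, ID2 and ID4) and 0 higher, where 22.8% of all names were called lower and 19.7% higher. Scaled to library totals 1 name was called lower and 1 higher in that comparison, and with the TMM factors of the single copies 1 name was called lower.

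The sums split by the position of the copies moved in opposite directions. Far from genes, 5 of the 7 tested sums were higher in G4 than in WT ESCs and 0 lower, whereas 6 of the 8 exonic sums, 3 of the 8 sums near genes and 1 of the 8 intronic sums were lower and none of them higher. Over all 2181 such sums 20.4% were called higher and 19.1% lower. The far B4A copies summed to 487, 420 and 468 CPM in G4, 357, 372 and 343 in G1 and 330, 290 and 342 in WT libraries. All G4 libraries lay above all others, and the log2 fold change to WT was 0.51 ± 0.10 (edgeR adjusted p = 5.7e-05).

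The other far sums of the B4 family changed by similar amounts. Far RSINE1 copies stood at 507, 489 and 496 CPM in G4, against 374, 333 and 377 in WT libraries (0.46 ± 0.09), far ID_B1 copies at 561, 558 and 560, against 427, 425 and 385 (0.44 ± 0.09), and far copies named B4 at 247, 254 and 247, against 185, 179 and 191 (0.43 ± 0.12). Far ID4 copies gave few counts, with 29.6, 26.4 and 28.8 CPM in G4 and 10.4, 7.99 and 19.6 in WT libraries (1.13 ± 0.33). Far ID2 copies (0.84 ± 0.49) and far ID4_ copies (-0.02 ± 0.26) did not pass the test, and the name ID had too few far counts to be tested.

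Exonic ID4 copies were lower, at 3417, 4123 and 4116 CPM in G4, 4845, 4630 and 4291 in G1 and 5104, 5689 and 5349 in WT libraries (-0.47 ± 0.07, edgeR adjusted p = 2.7e-06). G4 libraries lay below all others. The other exonic sums called lower were B4 (-0.35), ID2 (-0.32), B4A (-0.30), RSINE1 (-0.20) and ID4_ (-0.19). Near genes, ID4 (-0.68), RSINE1 (-0.27) and B4A (-0.20) were lower, and in introns ID2 (-0.36). The TMM factors of these sums shifted G4 against WT by 0.17 on the log2 scale. Scaled to library totals 6 sums were called higher and 3 lower, and with the TMM factors of the single copies 5 were called higher and 5 lower.

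**Figure D2:**
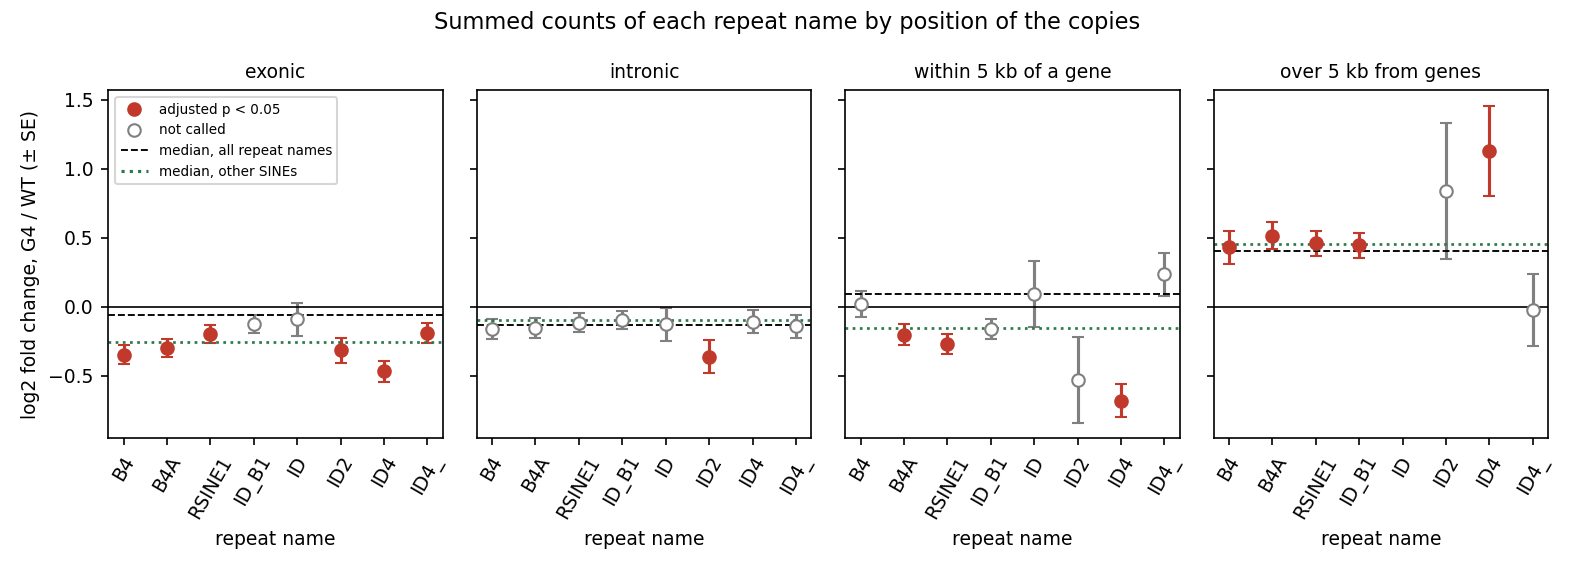
Log2 fold change of G4 over WT ESCs (y axis, ± SE, n = 3 libraries each) of the summed counts of each repeat name (x axis), in 4 panels by the position of the copies. Filled points passed the edgeR test at an adjusted p under 0.05, the dashed line is the median over all repeat names at that position and the dotted line that over the other SINE names. Far from genes 5 filled points lie above 0, while the filled points of the other panels lie below 0.

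Other SINEs far from genes had a median change close to that of the members. The median over the far sums was 0.46 for the 7 B4 and ID names, 0.46 for 25 names of other SINEs, of which 15 were called higher and 0 lower, and 0.40 for all 388 names, of which 135 were called higher and 39 lower. In exons the medians were -0.25, -0.26 and -0.06 in the same order. When the far copies alone were fitted, with scaling factors of their own, 0 of the members' names were called in G4 against WT ESCs by edgeR, and the sum of the B4 family was called higher (0.16, adjusted p = 0.017).

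Within the B4 family the far share of counts was 2.07%, 1.95% and 2.02% in G4, 1.44%, 1.53% and 1.51% in G1 and 1.36%, 1.25% and 1.33% in WT libraries. The 3 groups did not overlap, and G4 minus WT was 0.701 percentage points (exact permutation p = 0.1). It was 0.574 without the far copies that were tested singly and 0.730 with whole-valued copies alone. Within the ID family the far share was 0.680%, 0.600% and 0.621% in G4, 0.469%, 0.464% and 0.474% in G1 and 0.377%, 0.280% and 0.428% in WT libraries, again without overlap, from 34.0 to 80.3 counts per library. Other SINEs had a mean far share of 1.87% in G4 and 1.15% in WT ESCs. Over the whole table the far share went the other way, with means of 6.86% in G4, 9.004% in G1 and 8.22% in WT ESCs.

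G4 library 1 stood apart in the balance of exons and introns. Exonic copies held 50.6% of its B4 counts and intronic copies 42.0%, whereas the other G4 libraries had 57.4% and 56.6% exonic and 35.2% and 35.9% intronic counts. Without this library 5 sums by position were called higher and 14 lower in G4 against WT ESCs. The part of pre-mRNA or DNA in these shares was not tested.

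G1 against WT ESCs gave 0 of 31 sums by position called in either direction, with 4 at an unadjusted p under 0.05, where 2.29% of all sums were called higher and 4.49% lower. DESeq2 was not run on these sums, and without G4 library 1 in the fit 2 were called lower. G4 against G1 ESCs gave 4 called higher, which were the far sums of the 4 B4-family names, and 10 called lower, where 17.8% of all sums were called higher and 14.5% lower. The count of 10 lower sums was 5 without G1 library 1, 4 without G1 library 2, 5 without G1 library 3, 5 without G4 library 2, 6 without G4 library 3 and 6 without WT library 3.

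Among single copies, 236 of the 1290 tested B4-family copies (18.3%) were higher and 259 (20.1%) lower in G4 than in WT ESCs, while 21.3% of all 13278 tested copies were called in each direction. Of the 166 tested ID copies 34 (20.5%) were higher and 47 (28.3%) lower. The median log2 fold change was -0.04 in the B4 family, -0.11 in the ID family and -0.02 over all copies. Alu copies had 16.3% higher and 20.9% lower, and B2 copies 17.2% and 16.5%. By name the balance was most uneven in B4A, with 27 higher and 50 lower of 209, and ID2, with 2 higher and 5 lower of 13. ID_B1 had 122 higher and 118 lower of 558, RSINE1 57 and 64 of 371, B4 30 and 27 of 152, ID4 16 and 22 of 84, ID4_ 14 and 18 of 61 and ID 2 and 2 of 8.

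In G1 against WT ESCs 16 B4-family and 1 ID copies were higher and 46 and 8 lower, where 2.41% of all copies were called higher and 4.36% lower. The 46 lower B4-family copies were 30 without G1 library 2 and 26 without G1 library 3. In G4 against G1 ESCs 198 B4-family and 26 ID copies were higher and 234 and 37 lower, where 19% of all copies were called higher and 19.2% lower.

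Copies in sense with their gene and copies in antisense were called at rates near that of exonic copies in general. Of 636 exonic copies in sense 118 were higher and 151 lower in G4 than in WT ESCs, and of 445 in antisense 94 were higher and 88 lower, which is 18.6% and 23.7% in sense and 21.1% and 19.8% in antisense. Of all 7245 exonic copies 20.5% were higher and 21.8% lower. The library kit does not mark strand, so RNA from either strand of a copy cannot be told apart. The fifth field and the length of the copies were close in all classes, with medians of 260 and 152 bp in the 236 higher, 263 and 147 bp in the 259 lower and 266 and 145 bp in the 795 B4-family copies not called.

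Exonic copies moved with the rest of their gene. The RNA of a gene was taken from repeats of all other families in its exons, which left 865 of the 1081 tested exonic members, in 657 genes. Across these 865 pairs of G4 against WT ESCs the log2 fold changes of copy and gene had a Pearson correlation of 0.90, a description over pairs that share libraries and, within a gene, transcripts. Of the 353 called copies in these pairs 343 had the same sign as their gene, and the gene of 55 was not called. Both copy and gene were called for 298 pairs, and 297 of these had 1 direction. Of the host genes 156 were higher and 204 lower, while 48.2% of all 4170 such genes were called. In 63 genes more than 1 member was called, and in 62 of them all went the same way. In G1 against WT ESCs 32 pairs were called in both and all 32 had 1 direction, and in G4 against G1 ESCs 238 of 240.

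**Figure D3:**
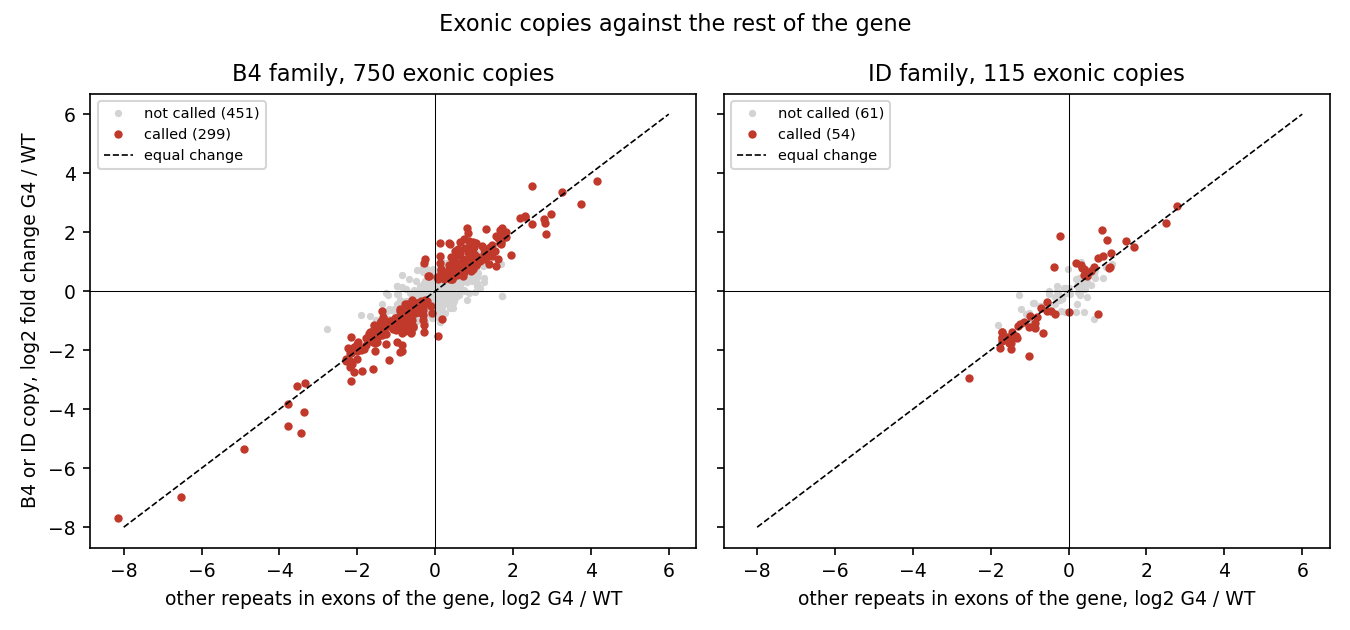
Log2 fold change of G4 over WT ESCs of exonic B4-family copies (left, 750 copies) and ID copies (right, 115 copies) on the y axis, against that of the other repeats in exons of the same gene on the x axis. Red points are the 299 B4-family and 54 ID copies that passed the edgeR test, grey points the rest, and the dashed line marks equal change, along which most red points lie.

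The exception among the pairs called in both was the ID4 copy in the 3′ UTR of Rbm25, a splicing regulator, at chr12:83682506-83682584. It stood at 82.4, 96.8 and 102 CPM in G4, 144, 164 and 169 in G1 and 155, 159 and 166 in WT libraries, with all G4 values below all others (-0.76 ± 0.13, edgeR adjusted p = 3.8e-05). The other repeats in exons of Rbm25 changed by 0.76 ± 0.21. The 2 most abundant B4-family copies of Abce1, a factor that recycles ribosomes, did not pass the test (B4A -0.15 ± 0.08, ID_B1 -0.17 ± 0.09). Other repeats in exons of that gene gave 1.72 with a wider error (± 0.51, edgeR adjusted p = 0.0036). Both copies have values that are not whole.

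Of the 12 most abundant ID copies, 3 for each name, 3 were higher and 7 lower in G4 than in WT ESCs. Over all 13278 tested copies 21.3% were called in each direction, but the 12 were chosen for high counts, so the shares are not compared at equal counts. The ID4_ copy in the 3′ UTR of Nanog, the pluripotency transcription factor, stood at 772, 1033 and 1077 CPM in G4, 476, 474 and 471 in G1 and 292, 304 and 295 in WT libraries. The groups formed 3 separate levels, and the copy rose by 1.70 ± 0.11 in G4 and 0.67 ± 0.11 in G1 ESCs (edgeR adjusted p = 1.5e-12 and 0.00014), beside 1.48 and 0.80 for the rest of the gene. The ID4_ copy of Cldn6, a tight junction protein, had 152, 147 and 181 CPM in G4, 556, 511 and 478 in G1 and 619, 672 and 715 in WT libraries and was lower by a log2 fold change of -2.06 ± 0.11 in G4 ESCs. G4 values lay far below both other groups.

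Further abundant ID copies were lower both in G4 and in G1 than in WT ESCs. The ID4 copy of Tor1aip2, whose protein binds torsinA at the endoplasmic reticulum, had 276, 313 and 325 CPM in G4, against 678, 763 and 759 in WT libraries (-1.26 ± 0.10). That of Clic4, an intracellular chloride channel protein, had 250, 280 and 278 CPM in G4, against 702, 687 and 729 in WT libraries (-1.39 ± 0.09). The ID4 copy of Wars, the tryptophanyl-tRNA synthetase, changed by -1.52 ± 0.12 and the ID4_ copy of Carhsp1, an RNA-binding protein, by -1.51 ± 0.13. In G1 ESCs these 4 copies changed by -0.48, -0.55, -0.59 and -0.49, all called. The rest of the gene gave -0.86 for Tor1aip2, -1.45 for Clic4 and -1.45 for Carhsp1 in G4 against WT ESCs, with no value for Wars. In G1 against WT ESCs it gave -0.14 for Tor1aip2 (edgeR adjusted p = 0.35), -0.55 for Clic4 and -0.44 for Carhsp1.

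Abundant ID2 and ID copies moved less. The ID2 copy of Igf2bp1, an RNA-binding protein of embryonic cells, had 201, 162 and 214 CPM in G4, 219, 294 and 249 in G1 and 310, 266 and 250 in WT libraries (-0.52 ± 0.13, edgeR adjusted p = 0.0022). The ID2 copy of Cdk2, a kinase of the cell cycle, gave -0.38 ± 0.14 (adjusted p = 0.030), a call that was lost under library totals, under the Wald test of DESeq2, without the filter on low counts and without any 1 of G4 library 1, G4 library 2 and WT library 2. The Igf2bp1 call was lost without that filter (adjusted p = 0.18). The ID copies of Prr11, which acts in the cell cycle, and Uevld rose by 0.89 ± 0.26 and 0.81 ± 0.29, and that of Alg11, a mannosyltransferase, did not pass the test (-0.49 ± 0.29). The Uevld call was lost under DESeq2, without the filter and without G4 library 2, G4 library 3 or WT library 3, and the Prr11 call without the filter or G4 library 3.

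In the B4 family, the abundant copies included some in genes of the p53 pathway and in Fgf4. The RSINE1 copy in the 3′ UTR of Mdm2, the ubiquitin ligase that degrades p53, had 497, 550 and 589 CPM in G4, 885, 810 and 892 in G1 and 856, 885 and 879 in WT libraries (-0.68 ± 0.09). That of Ccng1, a cyclin induced by p53, had 328, 353 and 399 CPM in G4, 730, 659 and 674 in G1 and 831, 772 and 849 in WT libraries (-1.18 ± 0.09). Both copies were lower in every G4 library than in any other, and neither passed the test in G1 against WT ESCs. The rest of the gene gave -1.36 for Mdm2 and -1.21 for Ccng1 in G4 against WT ESCs.

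The ID_B1 copy of Fgf4, a growth factor that ESCs secrete, had 890, 1032 and 955 CPM in G4, 744, 688 and 752 in G1 and 548, 592 and 554 in WT libraries. It rose by 0.77 ± 0.09 in G4 and 0.37 ± 0.09 in G1 ESCs, beside 0.80 and 0.48 for the rest of the gene. The B4A copy of Lrpap1, a chaperone of lipoprotein receptors, fell to 59.4, 92.3 and 84.5 CPM in G4, against 308, 268 and 251 in G1 and 477, 510 and 470 in WT libraries (-2.61 ± 0.13). The B4A copy of Snapc5, a subunit of the complex that activates small nuclear RNA genes, rose to 303, 339 and 340 CPM in G4, against 134, 207 and 182 in WT libraries (0.91 ± 0.13).

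The remaining abundant B4-family copies changed little or fell. The B4 copy of Carhsp1 changed by -1.34 ± 0.11, that of Zfp568, a zinc finger repressor, by -0.43 ± 0.10 and the RSINE1 copy of the noncoding gene 2900097C17Rik by -0.41 ± 0.10. The last 2 calls were lost without the filter on low counts (adjusted p = 0.55 and 0.62). The B4 copy of Pwp1, a factor of ribosome assembly, had 226, 232 and 272 CPM in G4 and 226, 228 and 241 in WT libraries, with overlapping values (0.07 ± 0.11, adjusted p = 0.63). The ID_B1 copy of Arl1, a GTPase of the Golgi, did not pass the test either (-0.19 ± 0.09).

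**Figure D4:**
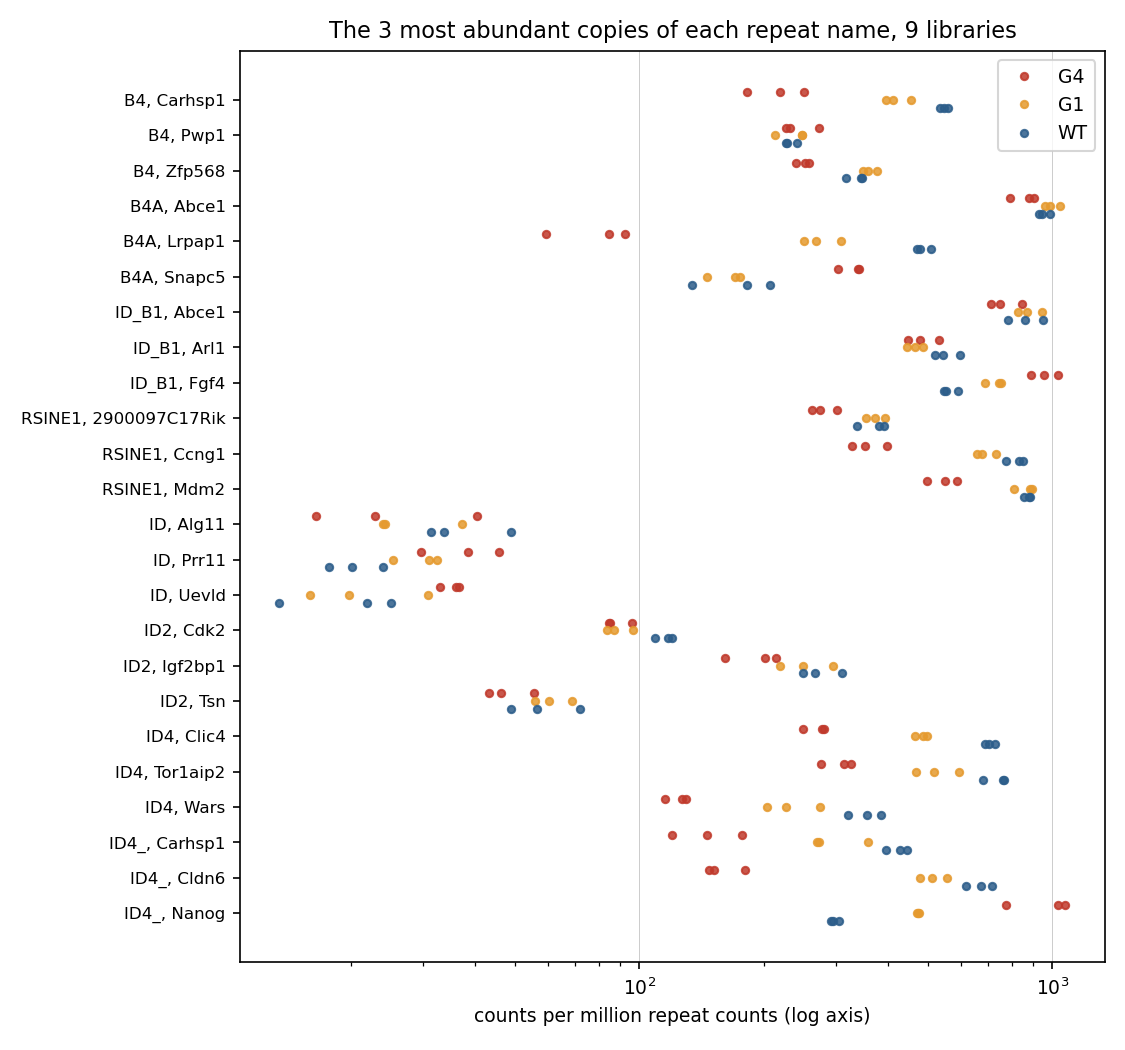
CPM (TMM scaled, log axis) of the 3 most abundant copies of each repeat name in the 9 libraries, each point 1 library, named by the host gene. The G4 points of Nanog (772 to 1077) and Fgf4 (890 to 1032) lie to the right of the WT points (292 to 304 and 548 to 592), and those of Lrpap1 (59.4 to 92.3) and Cldn6 (147 to 181) to the left (WT 470 to 510 and 619 to 715).

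The largest rises in G4 ESCs were mostly of copies with few counts in WT ESCs. The B4 copy in an exon of the noncoding gene Gm13203, whose sequence is given above, had 23.1, 23.8 and 16.2 CPM in G4, 1.04, 1.77 and 1.10 in G1 and 0, 0 and 1.92 in WT libraries (edgeR adjusted p = 7.3e-06). With 2 counts in WT ESCs its scaled count ratio of G4 to WT was 32.1 (95% interval 8.52 to 270, counting error only). The ID_B1 copy of 1110002J07Rik, also shown above, had 109, 105 and 111 CPM in G4, 16.7, 23.0 and 9.90 in G1 and 6.25, 3.13 and 3.84 in WT libraries. It rose by 4.59 ± 0.30 in G4 and by 1.91 ± 0.40 in G1 ESCs (edgeR adjusted p = 2.4e-12 and 0.0028). The 3 groups did not overlap, where no overlap of G4 or of G1 with WT libraries was a condition of its choice. This copy passed the filter on low counts through its G4 and G1 libraries, so its direction is partly set by it.

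Of the other 4 large rises of the B4 family, 2 lay in introns and 2 near genes. The B4 copy in an intron of Cd302, a C-type lectin receptor, at chr2:60268227-60268499 had 15.4, 21.9 and 27.0 CPM in G4, against 1.04, 1.04 and 0.960 in WT libraries, a ratio of 22.4 (7.33 to 111, 3 WT counts). The B4 copy in an intron of Map2k6, a kinase of the p38 pathway, gave a ratio of 17.8 (4.57 to 152), and copies near genes at chr14:21449234-21449436 (B4) and chr11:96098015-96098117 (ID_B1) gave 20.4 (6.66 to 102) and 15.5 (4.97 to 77.6). Each of them was above all G1 and WT libraries in every G4 library, where no overlap with WT libraries was a condition of their choice. Like the copy of Gm13203 they had few counts in G1 and WT libraries. They passed the filter on low counts through their G4 libraries, so their direction is partly set by it.

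Several members were not detected in any G4 library. The ID_B1 copy in an intron of Tcf23, a transcription factor of the basic helix-loop-helix class, at chr5:30969868-30970003 had 0 counts in all G4 libraries, against 16.7, 21.3 and 18.7 CPM in G1 and 60.4, 46.0 and 49.0 in WT libraries. It was at least 51.7-fold lower in G4 than in WT ESCs, on a floor of 3 counts over the group. The B4 copy in the 3′ UTR of Ugt2b34, a glucuronosyltransferase, was at least 25.3-fold lower, and the RSINE1 copy of Adora1, an adenosine receptor, at least 14.9-fold. An ID_B1 copy near genes at chr9:110721720-110721922 was at least 22.3-fold lower and an ID_B1 copy in an intron of 1010001N08Rik at least 19.9-fold. Both, like the copy of Ugt2b34, passed the filter on low counts through their WT libraries, so their direction is partly set by it. The B4 copy of Srgn, a proteoglycan of secretory granules, had 2 counts in all in G4 ESCs, against 85.4, 124 and 78.7 CPM in WT libraries, a ratio of 0.00697 (0.00084 to 0.0254). In G1 ESCs Tcf23 (-1.44 ± 0.26), Ugt2b34 (-1.53 ± 0.40), Srgn (-1.16 ± 0.21) and the chr9 copy (-1.96 ± 0.49) were called lower than in WT ESCs, the last of these lost without G1 library 3, WT library 1 or WT library 3.

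In the ID family the largest rise was an ID4_ copy near genes at chr11:88967897-88967976, with 20.9, 16.4 and 26.1 CPM in G4, against 0, 3.13 and 3.84 in WT libraries (3.10 ± 0.57). The ID2 copy in the 3′ UTR of Bmf, which promotes apoptosis, had 26.4, 38.4 and 48.5 CPM in G4, 12.5, 7.09 and 13.2 in G1 and 3.12, 7.31 and 4.80 in WT libraries (2.88 ± 0.39), beside 2.79 for the rest of the gene. The ID4_ copy of Nos1, a nitric oxide synthase, had 18.7, 19.2 and 14.4 CPM in G4, against 0, 5.22 and 4.80 in WT libraries (2.32 ± 0.64). All of these rises were chosen without overlap with WT libraries, and the copies passed the filter on low counts through their G4 libraries.

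The largest falls of the ID family were an ID4 copy near genes at chr7:109798045-109798124 (-3.71 ± 0.59), the ID4 copy of Sh3pxd2b, an adaptor of podosomes, and the ID4_ copy of Myo6, an unconventional myosin (-2.64 ± 0.76). The copy of Sh3pxd2b had 12.1, 3.65 and 9.88 CPM in G4, 32.3, 43.4 and 30.8 in G1 and 71.9, 60.6 and 65.3 in WT libraries (-2.96 ± 0.29, edgeR adjusted p = 9.0e-09). Its 3 groups did not overlap, and the rest of the gene gave -2.56. No overlap between G4 and WT libraries was a condition of the choice of all these falls. The copy of Myo6 had few counts, with 0, 0.91 and 4.49 CPM in G4, 1.04, 4.43 and 11.0 in G1 and 14.6, 15.7 and 7.68 in WT libraries.

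Few copies changed strongly in G1 ESCs, and those given here were chosen without overlap between G1 and WT libraries. The ID_B1 copy in an exon of Halr1, a noncoding RNA of the HoxA locus, had 55.3, 54.9 and 55.0 CPM in G1, against 31.2, 18.8 and 25.0 in WT libraries (1.14 ± 0.23), and 19.8, 19.2 and 14.4 in G4 libraries. The B4 copy of Mertk, a receptor tyrosine kinase, had 9.39, 7.09 and 9.90 CPM in G1, against 28.1, 32.4 and 26.9 in WT libraries (-1.73 ± 0.35). The ID_B1 copies of H3f3a, which encodes histone H3.3 (2.35 ± 0.67), and Tecpr2, a protein of autophagy (-1.64 ± 0.49), were called at adjusted p = 0.030 and 0.043. In the same comparison the rest of the gene gave -1.03 for Mertk and -0.15 for Tecpr2 (edgeR adjusted p = 0.0021 and 0.84). The H3f3a call was lost without G1 library 1, G1 library 2, G4 library 2, WT library 1 or WT library 2, and the Tecpr2 call without any 1 G1 library, G4 library 2, WT library 1 or WT library 3. Neither call held under DESeq2, which gave no adjusted p for H3f3a, or without the filter on low counts. The Mertk copy passed that filter through its WT libraries and the H3f3a copy through G1 and G4 libraries, so their direction is partly set by it.

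Far from genes 10 members were tested, and 6 were higher and 0 lower in G4 than in WT ESCs, while of all 993 tested far copies 251 were higher and 300 lower. Of these 6 copies 5 had at most 5.21 CPM in every G1 and WT library, so that they passed the filter on low counts through their G4 libraries and their direction is partly set by it. A B4A copy at chr12:21729412-21729609 had 50.6, 43.8 and 37.7 CPM in G4, 15.7, 10.6 and 11.0 in G1 and 11.5, 14.6 and 12.5 in WT libraries (1.76 ± 0.28). A B4 copy and an RSINE1 copy that adjoin each other at chr9:118397294-118397392 and chr9:118397159-118397293 rose by 3.41 ± 0.60 and 2.93 ± 0.69, and an RSINE1 copy at chr13:113739233-113739381 by 2.53 ± 0.56. The last 2 were B4 copies on chromosome Y, at chrY:90745872-90746160 and chrY:90830239-90830527. Their values were identical in every library and not whole, with 16.5, 18.3 and 16.2 CPM in G4, 0, 1.77 and 1.10 in G1 and 4.17, 2.09 and 1.92 in WT libraries (2.6 ± 0.57), so that they count as 1 signal.

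The study asks about repeats close to telomeres, and few members were tested there. Within 1 Mb of a chromosome end lay 17 tested members, 4 higher and 0 lower in G4 than in WT ESCs, beside 71 higher and 23 lower of all 219 tested copies there. With the chromosome Y pair taken as 1 signal the members were 3 higher of 16. The 4 were the chromosome Y pair and the ID_B1 copies of Fgf4 and of Resf1, a silencer of retroelements. The pair passed the filter on low counts through its G4 libraries, so its direction is partly set by it. The Resf1 copy had 109, 137 and 146 CPM in G4, 133, 114 and 130 in G1 and 89.6, 86.7 and 95 in WT libraries (0.53 ± 0.14). In G1 against WT ESCs the Fgf4 and Resf1 copies were also called higher (0.37 and 0.47, edgeR adjusted p = 0.0077 and 0.048). G4 against G1 ESCs gave 0.40 for Fgf4 and 0.07 for Resf1 (adjusted p = 0.00055 and 0.74). Within 20 Mb of an end 77 of 420 members (18.3%) were higher and 73 (17.4%) lower, while of all 3996 tested copies there 22% were higher and 18.3% lower. Beyond 20 Mb 193 of 1036 members (18.6%) were higher and 233 (22.5%) lower.

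Single chromosomes differed in the balance of calls, and the 3 given here were picked after their values were seen. On chromosome 1, 12 of 99 tested members were higher and 32 lower in G4 than in WT ESCs, beside 117 higher and 229 lower of all 785 copies. On chromosome 9, 27 of 91 members were higher and 14 lower, beside 156 and 130 of 640, and on chromosome 6, 16 of 70 were higher and 19 lower, beside 89 and 184 of 581. The karyotype of the lines was not analysed here.

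Genes that make or silence SINE RNA were read through the repeats in their exons. Of 27 genes of the RNA polymerase III machinery 14 were tested, and in G4 against WT ESCs 1 was higher and 4 lower, with a median of -0.00 beside 0.03 over all 4170 genes, of which 1042 were higher and 970 lower. The share of the list that was called is below the 48.2% over all genes. Gtf3c6, a subunit of the factor that binds the B box, had 235, 226 and 208 CPM in G4, against 309, 311 and 335 in WT libraries (-0.52 ± 0.10, edgeR adjusted p = 3.3e-05). Polr3d, a polymerase III subunit, fell by 0.63 ± 0.14 on the log2 scale, and Polr3gl, an alternative subunit, rose by 0.80 ± 0.19 in G4 and 0.71 ± 0.20 in G1 ESCs. Gtf3c2 and Gtf3c4, 2 further subunits of that factor, gave -0.42 ± 0.13 and -0.30 ± 0.12. Polr3gl was the single one of the 14 called in G1 against WT ESCs.

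Of the 22 names listed as silencers of SINEs and other repeats, 8 were tested, and 2 were higher and 2 lower in G4 than in WT ESCs, with a median of 0.26, a share called that is near the 48.2% over all genes. Suv39h1, which methylates histone H3 at lysine 9, had 87.1, 87.1 and 76.4 CPM in G4, 269, 281 and 269 in G1 and 329, 381 and 435 in WT libraries (-2.20 ± 0.12). Its values formed separate levels in the 3 groups. Hells, a chromatin remodeller needed for DNA methylation, rose by 0.39 ± 0.08 and Trim28, a corepressor of zinc finger proteins, by 0.96 ± 0.30, while Cbx3, a heterochromatin protein, had 1.08, 5.33 and 0.878 CPM in G4, against 11.6, 10.3 and 9.53 in WT libraries (-2.02 ± 0.62).

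Pluripotency and primitive endoderm markers moved with the groups, while the feeder fibroblast sums of G1 libraries overlapped those of both other groups. Of 15 pluripotency markers 6 were tested and 5 were higher in G4 than in WT ESCs, with summed levels of 21516 to 25181 CPM in G4, 10698 to 11271 in G1 and 6828 to 7282 in WT libraries. Of 10 primitive endoderm markers 4 were tested and all 4 were lower, with summed levels of 100 to 128 CPM in G4, 1956 to 2065 in G1 and 4379 to 4406 in WT libraries. Gata4, which defines that lineage, had 12.9 to 24.9 CPM in G4 and 702 to 762 in WT libraries. Feeder fibroblast markers summed to 120 to 127 CPM in G4, 110 to 137 in G1 and 82.7 to 116 in WT libraries over 4 of 14 genes. Of these, 2 were higher and 1, Pdgfra, shared with the endoderm list, lower in G4 than in WT ESCs. The 1 tested gene of 9 on the 2-cell list, Usp17lc, had 9.66 to 14.0 CPM in G4 and 0 in all G1 and WT libraries. It passed the filter on low counts through its G4 libraries, so its direction is partly set by it. None of the neuroectoderm or mesoderm markers passed the filter. The part of this difference in cell types in the changes of exonic members was not tested. In bulk RNA, fewer cells of a type and less RNA per cell cannot be told apart.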

How the data were processed

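RNA of 9 ESC libraries (3 G4 Terc-/-, 3 G1 Terc-/-, 3 WT) had been sequenced with a TruSeq kit that does not mark strand. The submitters' processing notes name FastQC 0.11.9, STAR 2.5.3a, featureCounts and mm10. The deposited table holds estimated counts per repeat copy, not normalized by the authors, in which shared reads leave fractions, and these were rounded to whole numbers. A second deposited table of normalized values was not used. Start coordinates in the file count from 0, so 1 was added. The members and gene lists were chosen with earlier results of these data known.

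Copies were placed by GENCODE gene models (55536) on GRCm38 as exonic (a fraction of at least 0.5 in exons), intronic, near (within 5 kb) or far. Single copies, sums by family, by repeat name and by name and position, and host genes were each fitted over the whole table with all 9 libraries by edgeR 4.0.16 (quasi-likelihood test, filterByExpr, TMM factors, R 4.3.3), and called at a Benjamini-Hochberg adjusted p under 0.05. Shares were compared by two-sided exact permutation tests (scipy 1.17.1, with numpy 2.4.6 and pandas 2.3.3). Fitting was tested on simulated data. Library totals were 918879 to 1137257 counts, and intervals and floors (3 counts over a group) cover counting error only.

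Named copies were the 6 largest rises and 6 largest falls of the B4 family and 3 and 3 of the ID family in G4 against WT ESCs, and 3 and 3 over both in each other comparison. They had to be called, without overlap and with a mean of 10 counts in the higher group. The 3 most abundant copies of each repeat name were added. Copies of Rbm25, Adam19, Mkrn1 and Resf1, far copies and the printed sequences were picked after their values were seen. Alternatives were DESeq2 1.42.0 (size factors, Wald test), library totals, no filter, fold rules, only the groups compared, a replicate block, leaving out each library, whole-valued copies, far copies, copies outside chromosome 6, leaving out the largest copy, shares of SINE counts and the distal chromosome end. The ratio of ID to B4, the far share variants and the TMM factors of single copies were chosen after seeing the data.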

Additional observations from a re-analysis of the deposited data

Results flagged for a closer look

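A pair of copies moved in opposite directions in G4 and G1 ESCs relative to WT ESCs, and both have values that are not whole. Since both comparisons share the WT libraries, the contrast of G4 against G1 ESCs is the test of the difference.

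The ID_B1 copy in the 3′ UTR of Adam19, a metalloprotease, on chromosome 11 had 173, 218 and 211 CPM in G4, 97.0, 99.2 and 77.0 in G1 and 142, 135 and 131 in WT libraries. All G4 libraries lay above and all G1 libraries below the WT libraries, and G4 against G1 gave a log2 fold change of 1.14 (edgeR adjusted p = 2.9e-07).

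The B4A copy in an intron of Mkrn1, a ubiquitin ligase, on chromosome 6 had 8.79, 8.22 and 6.29 CPM in G4, 45.9, 55.8 and 51.7 in G1 and 26.0, 25.1 and 25.0 in WT libraries. Here all G1 libraries were highest, and G4 against G1 gave -2.71 (edgeR adjusted p = 2.8e-08).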

How the results depend on the processing

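The 3 libraries a group are not stated to be separate cultures, and cell line and generation cannot be told apart. With 3 against 3, permutation p cannot fall below 0.1. Of the summary results under all alternatives, 567 kept their direction and call or stayed within 1.5 times, 67 moved, 14 became called, 3 lost the call and 1 reversed. Among the values of single repeat names 430 kept their direction and call, 23 lost the call, 10 gained it and 14 reversed. Among the named single copies 757 kept their call, 37 lost it and 10 gained it. The cause of these changes was not tested except where fewer copies or libraries entered.

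Scaling mattered most for sums. With library totals the repeat names called in G4 against WT ESCs were 1 higher and 2 lower (0 and 7 before), in G1 against WT 1 lower (0) and in G4 against G1 1 higher and 1 lower (0 and 5), and ID_B1 and RSINE1 turned to 0.0571 and 0.0161, and ID_B1 to 0.0903 in G4 against G1. Sums by position called lower became 3 (10) and 1 (10) in G4 against WT and against G1. With TMM factors of single copies the names called lower became 3, 1 and 1 in the 3 comparisons, ID_B1 gave 0.0049 in G4 against WT, the ID family was called lower in G1 against WT (-0.0906) and G4 against G1 (-0.0872), and sums by position called lower became 5, 1 and 4 (10, 0 and 10). DESeq2 size factors made the B4 family higher in G4 (0.0557) and G1 (0.0675) than in WT ESCs.

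The Wald test of DESeq2 gave 0.0557 and 0.0675 for the B4 family in G4 and G1 against WT, -0.0858 for ID in G4 against WT, 10 higher and 26 lower B4 copies in G1 against WT (16 and 46) and 154 lower B4 copies in G4 against G1 (234). Without the filter, lower ID copies in G4 against WT numbered 30 (47), G1 against WT gave 4 and 16 B4 copies and 3 lower ID copies (8), G4 against G1 gave 95 lower B4 copies and 17 and 21 ID copies (26 and 37), and the ID family was called at -0.11 in G4 against G1. A fold over 2 left 153 higher B4 and 18 higher ID copies in G4 against WT (236 and 34), 5 and 13 B4 and 0 and 1 ID copies in G1 against WT, 121 and 145 B4 and 10 higher ID copies in G4 against G1, and 0 repeat names lower. A fold over 1.5 with unadjusted p gave 55 and 82 B4 and 8 higher ID copies in G1 against WT, and 0 repeat names lower. With only the groups compared 1 name was lower in G1 against WT, and the ID family was called in G1 against WT (-0.0701) and G4 against G1 (-0.0998).

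With far copies alone 0 names were lower. In G4 against WT B4 gave 0.0789, B4A 0.16, ID_B1 0.0892, ID2 0.49, ID4 0.78, RSINE1 0.11 and the families 0.16 (B4, called higher) and 0.21 (ID), and in G4 against G1 B4 gave 0.20, B4A 0.14, ID4 0.47 and RSINE1 0.18. In G4 against G1 the ID family was called outside chromosome 6 (-0.14) and without the largest copy (-0.14), and without it also in G1 against WT (-0.11). The distal end alone had 45 lower members within 20 Mb (73). Of SINE counts, the B4 share changed by -0.630, 0.0822 and -0.712 and the ID share by -0.328, -0.122 and -0.207 percentage points in G4 minus WT, G1 minus WT and G4 minus G1, and with whole-valued copies the ID share by -0.0601 in G4 minus WT.

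Same-numbered libraries showed no shared deviation (correlations of -0.015 to 0.021 over 9 pairs). The labels do not say whether they were handled together, and this check cannot decide it. With the replicate block, sums by position called lower in G4 against G1 numbered 6 (10), and repeat names called lower in G4 against WT stayed at 7. The block ended the calls of the H3f3a and Tecpr2 copies in G1 against WT ESCs (adjusted p = 0.059 and 0.052). Leaving out 1 library gave -0.14 to -0.0815 for the ID family in G4 against WT and -0.10 to -0.0225 in G4 against G1, where it was called without G1 library 3. In G1 against WT it gave 26 to 44 lower B4 copies, 1 to 2 higher ID copies (2 without WT library 1), 4 to 8 lower ID copies (5 without WT library 2, 4 without G1 library 3), 0 to 1 lower names and 0 to 2 lower sums by position. In G4 against G1 it gave 17 to 27 higher ID copies (17 without G1 library 3) and 4 to 10 lower sums by position.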
